A study of Homo sapiens with 2 samples.

Results

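Expression of 10 genes for enzymes that remove reactive oxygen species or use glutathione was described in single cells of stem cell-derived islet clusters. The genes were GSTA1, GSTA2, MGST1, GPX1, GPX2, GPX3, GPX4, CAT, SOD1 and SOD2, taken by symbol from all genes in the feature tables, and all 10 were found. The cells were enhanced beta clusters (eBCs) made from iSOX9KO cells, a line built in the Mel1-INS-GFP human embryonic stem cell reporter line. In it, a Cas9 that doxycycline (DOX) switches on and 3 guides against SOX9 sit in the AAVS1 safe harbour locus. Both libraries carry this cassette and come from 1 clone. One was kept free of DOX and the other was exposed to 2 ug/ml from day 12 of differentiation, and they are called the no DOX library and the DOX library by their labels. To form eBCs, cells bright for GFP, which reports insulin, were sorted alive and left to cluster again, and a further sort for living cells preceded 10X Genomics sequencing. The culture medium of both libraries contained N-acetyl cysteine, a precursor of glutathione, and vitamin C. No value could be compared with cells grown without these antioxidants.

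Superoxide, which leaks from the respiratory chain, is turned into hydrogen peroxide by superoxide dismutases, SOD1 with copper and zinc in the cytosol and SOD2 with manganese in mitochondria. Catalase (CAT) in peroxisomes and the glutathione peroxidases (GPX) then remove peroxide, the latter with glutathione as the reductant, and GPX4 also reduces lipid peroxides in membranes. Glutathione transferases couple glutathione to reactive molecules: GSTA1 and GSTA2 are cytosolic alpha-class enzymes best known from liver, and MGST1 is bound to membranes. Pancreatic beta cells are known for weak peroxide-removing defences, which is the usual reason for looking at these genes in islet cells.

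The no DOX library held 30288 barcodes with 550240855 unique molecular identifiers (UMIs), the DOX library held 31817 barcodes with 520849221 UMIs, and 369 barcode sequences occurred in both. After removal of doublets, which were called with all genes, 44926 cells were kept. They were clustered without the enzyme genes or any other gene of the pathway lists. Levels of these genes thus did not enter the clustering, but they could affect which cells were removed as doublets. Classes were named from 12 markers each. They were 16850 Beta-like, 9162 Alpha-like, 4591 Delta-like and 331 Duct-like cells, with 10649 cells like beta cell progenitors (here progenitor-like) and 987 Proliferating progenitor-like cells. Each cluster had all 12 of its markers at a log2 fold of at least 1, apart from the Beta-like cluster with 11. A cluster of 2356 cells with median mitochondrial shares of 75.4% and 66.3% stayed unnamed. SOX9, the targeted gene, was not lower with DOX (1147 UMIs over all cells kept, against 946), so each direction between the libraries is that of their labels. Cas9 edits need not lower a transcript, and SOX9 protein was not measured in these files. Levels are in CPM: the UMIs that all cells of a class hold for a gene, scaled to a class total of 1000000. They come from counts of transcript ends that are not scaled to gene length, so levels were compared between classes and not between genes. Where 2 values stand side by side, the no DOX library comes first. With 1 library per condition there is no replicate. No difference was tested, and the 95% intervals in parentheses cover counting error only.

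GSTA1 (ENSG00000243955, chromosome 6 from 52791371 to 52803860, minus strand) and GSTA2 (ENSG00000244067, chromosome 6 from 52750087 to 52763475, minus strand) are neighbours on GRCh38 by GENCODE 44, each with 7 exons. Their canonical transcripts were identical at 95.2% of 1218 aligned bases and shared runs of up to 209 bases, so the split of UMIs between the pair is uncertain. The 250 bases upstream of the start site are shown for these genes and for MGST1 and GPX2, since these 4 enzymes were the ones called higher in Alpha-like than in Beta-like cells. They are RefSeq promoters on GRCh38.p14 at chr6:52803817-52804066 (GSTA1, minus strand), chr6:52763476-52763725 (GSTA2, minus strand), chr12:16347395-16347644 (MGST1, the first of 3 start sites, plus strand) and chr14:64942746-64942995 (GPX2, minus strand). Capitals mark 3 motifs looked for on both strands after the levels were known. The first was GTTAAT, a half-site of HNF1 factors. The second was TGACNNNGC, the core of the antioxidant response element bound by NRF2. The third was the TATA box, spelled TATAAA.
GSTA1: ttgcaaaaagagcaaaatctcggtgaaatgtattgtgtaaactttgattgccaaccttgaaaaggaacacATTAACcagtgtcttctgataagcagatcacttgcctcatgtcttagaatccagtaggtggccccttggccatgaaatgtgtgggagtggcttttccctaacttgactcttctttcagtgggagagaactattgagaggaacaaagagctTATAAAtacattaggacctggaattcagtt
GSTA2: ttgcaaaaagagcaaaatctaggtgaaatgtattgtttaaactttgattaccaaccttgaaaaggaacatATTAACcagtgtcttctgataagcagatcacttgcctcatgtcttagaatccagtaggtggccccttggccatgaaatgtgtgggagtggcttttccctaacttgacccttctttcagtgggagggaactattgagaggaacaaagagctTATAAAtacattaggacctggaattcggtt
MGST1: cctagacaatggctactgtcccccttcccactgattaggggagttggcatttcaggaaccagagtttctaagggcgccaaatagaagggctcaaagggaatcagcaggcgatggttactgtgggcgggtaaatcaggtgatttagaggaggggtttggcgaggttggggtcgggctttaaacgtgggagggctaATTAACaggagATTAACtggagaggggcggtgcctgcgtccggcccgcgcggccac
GPX2: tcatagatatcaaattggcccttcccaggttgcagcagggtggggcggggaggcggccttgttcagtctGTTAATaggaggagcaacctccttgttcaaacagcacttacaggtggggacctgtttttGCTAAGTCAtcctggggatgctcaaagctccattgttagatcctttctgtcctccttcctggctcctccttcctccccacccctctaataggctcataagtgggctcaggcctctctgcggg
The GSTA1 and GSTA2 promoters, with 50 bases after the start included, were identical at 288 of 300 bases. Both held ATTAAC, the half-site on the other strand, starting 180 bases before the transcription start, and a TATA box starting 30 bases before it. MGST1 held the half-site 2 times and GPX2 held it once beside a core of the response element, here on the other strand as GCTAAGTCA. The table used held 16 promoters for 9 members, since some members have several start sites. Of these 16, 2 held the response element core (GPX2, and MGST1 at another start site), beside 13.3% of all 35116 promoters of that length. The half-site was found in 6.88% and the TATA box in 11.5% of all promoters. SOD1 had no entry. A match of letters is a description of the window and not a binding site.

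GSTA1 was high in Duct-like and Alpha-like cells and low in the other classes. In Duct-like cells its level was 161 CPM (146 to 178) without DOX and 108 CPM (97.1 to 121) with it. In Alpha-like cells it was 63.6 CPM (61.7 to 65.5) and 44.5 CPM (42.7 to 46.3). Proliferating progenitor-like cells followed with 15.5 and 7.87 CPM, and Delta-like cells with 4.29 and 1.86 CPM. Beta-like cells had 1.75 CPM (1.53 to 1.99) and 0.579 CPM (0.465 to 0.711), and progenitor-like cells had 1.54 CPM (1.26 to 1.87) and 0.705 CPM (0.506 to 0.956), intervals that overlapped in both libraries. The order of the 6 classes was the same in both libraries apart from that pair. The Alpha-like level was 36.4-fold (31.8 to 41.7) and 76.8-fold (62.2 to 96.0) the Beta-like level. These are log2 ratios of 5.18 and 6.26, and they were 3.54 and 3.48 with doublets kept. Without the cell that held most GSTA1 UMIs in each class and library, the fold was 65.4 and 80.3. The DOX log2 ratio was 4.56 with a minimum of 2000 UMIs per barcode.

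GSTA2 was sparse, with 624 UMIs over all cells kept of both libraries. Of these, 547 lay in Alpha-like cells, at 4.05 CPM (3.59 to 4.56) and 5.30 CPM (4.69 to 5.97). Duct-like cells had 3.16 CPM (1.36 to 6.22) and 3.61 CPM (1.80 to 6.45), from 8 and 11 UMIs, which could not be told apart from the Alpha-like level at this depth. Every other class was below 1 CPM. The neighbouring genes thus shared their 2 highest classes. GSTA1 was higher in Duct-like than in Alpha-like cells by 2.54-fold (2.29 to 2.81) and 2.44-fold (2.17 to 2.74), while for GSTA2 this ratio was 0.779 (0.333 to 1.56) and 0.680 (0.335 to 1.24). The GSTA1 gap was smaller without the cell that held most of its UMIs in each class and library. Duct-like cells then had 109 and 81.1 CPM and Alpha-like cells 62.7 and 43.3 CPM.

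MGST1 (ENSG00000008394, chromosome 12 from 16347142 to 16609259, plus strand) was led by Alpha-like cells. There it had 414 CPM (409 to 419) without DOX and 472 CPM (466 to 478) with it. Proliferating progenitor-like cells had 188 and 231 CPM, Duct-like cells 88.4 and 89.5 CPM, and the remaining classes between 4.76 and 7.04 CPM. In contrast to GSTA1, Duct-like cells were below Alpha-like cells, at 0.214 of their level (0.186 to 0.244) and 0.190 (0.168 to 0.214). Alpha-like over Beta-like cells, MGST1 was 63.1-fold higher (58.9 to 67.6) and 99.1-fold higher (92.1 to 107), log2 ratios of 5.98 and 6.63 that were 3.78 and 3.76 with doublets kept.

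**Figure D1:**
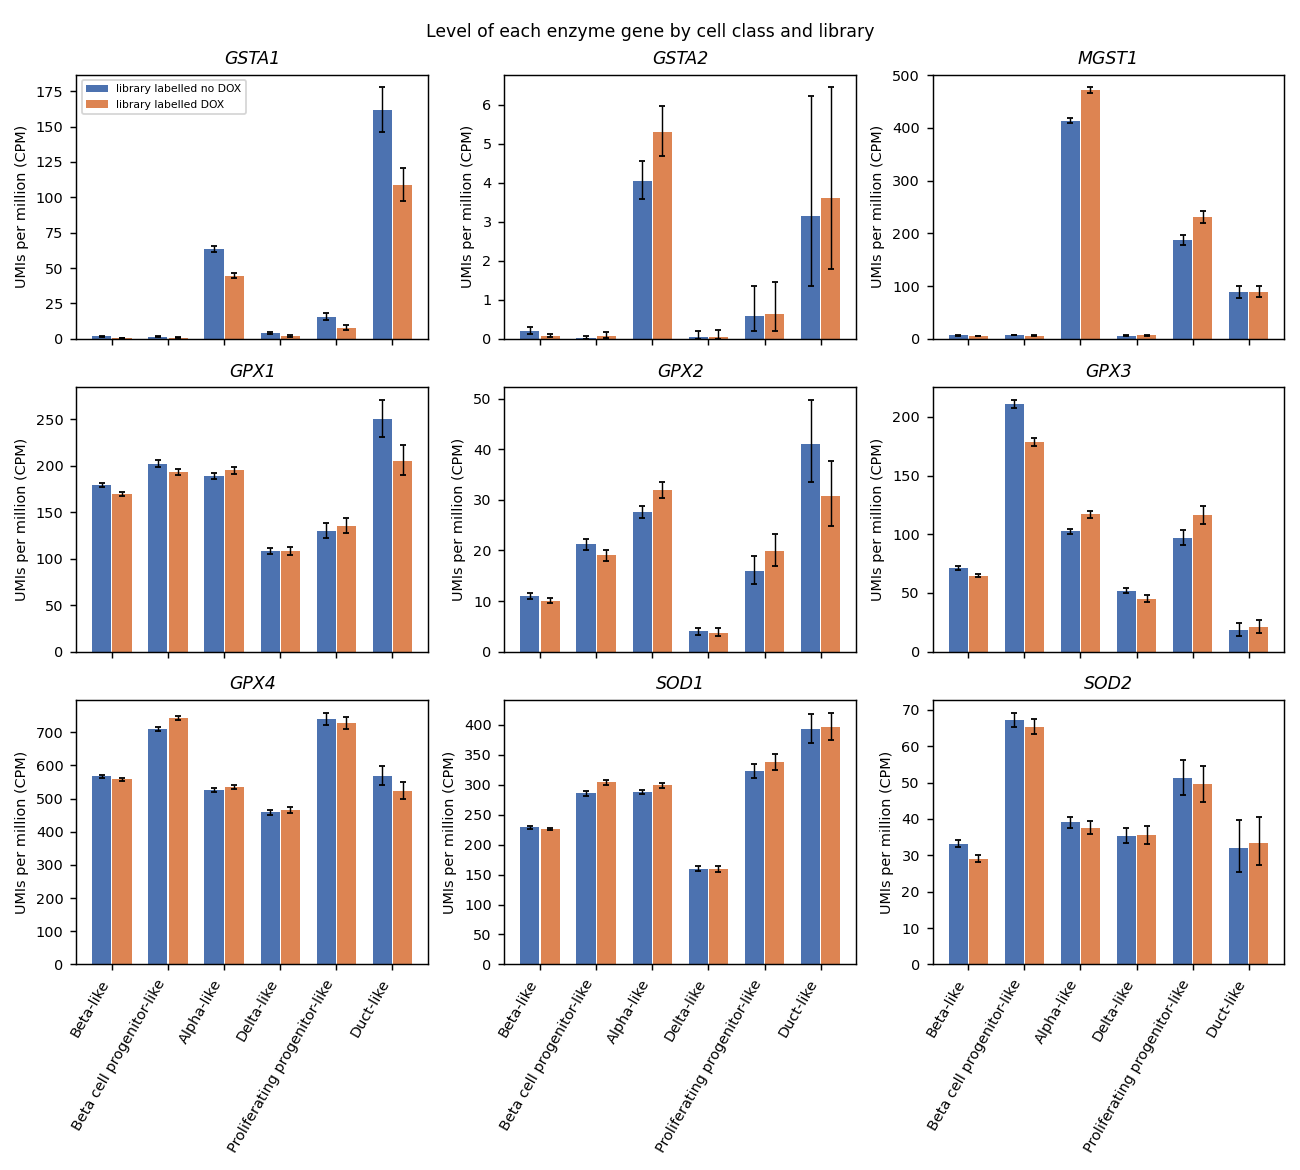
Bars give the level in CPM (linear axes from 0) of 9 enzyme genes in the 6 named classes, without DOX (blue) and with DOX (orange), and lines give the 95% counting interval. GSTA1, GSTA2 and MGST1 had at most 7.04 CPM outside Alpha-like, Duct-like and Proliferating progenitor-like cells, GPX3 was highest in progenitor-like and lowest in Duct-like cells, and GPX1, GPX4 and SOD1 varied by 2.09-fold, 1.59-fold and 2.48-fold between their highest and lowest class over both libraries.

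Glucagon (GCG) gauges the free RNA and residual doublets that carry Alpha-like transcripts into other classes. Beta-like cells held GCG at 1.74% and 1.15% of the Alpha-like level. There MGST1 stood at 1.59% and 1.01% of its Alpha-like level and GSTA1 at 2.75% and 1.30%, so the Beta-like levels of both lay close to this background and are not read as expression. The same holds for GSTA1 in progenitor-like cells, at 2.43% and 1.59% beside 1.86% and 1.32% for GCG. The Alpha-like over Beta-like folds of both genes thus rest on a background level. In Delta-like cells GSTA1 stood at 6.74% and 4.19%, above GCG with 1.91% and 1.54%. In Proliferating progenitor-like cells GCG was at 34.2% and 46.9% of the Alpha-like level, beside 45.3% and 49.0% for MGST1 and 24.4% and 17.7% for GSTA1. This class was therefore not free of Alpha-like transcripts. In Duct-like cells GCG was at 2.91% and 1.42%, whereas MGST1 reached 21.4% and 19.0% and GSTA1 exceeded its Alpha-like level.

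Per cell, MGST1 and GSTA1 were spread in different ways. After each cell was thinned to 5000 UMIs, MGST1 was seen in 2669 of 4441 Alpha-like cells without DOX (60.1%, exact Clopper-Pearson interval 58.6 to 61.5) and in 2361 of 3620 with DOX (65.2%, 63.6 to 66.8). GSTA1 was seen in 416 (9.37%, 8.53 to 10.3) and 245 (6.77%, 5.97 to 7.64) of the same cells. Thinning left out 610 and 491 shallower Alpha-like cells, and unthinned shares were 69.7% and 73.6% for MGST1 and 12.3% and 8.78% for GSTA1. Cells with GSTA1 were few but held 3.13 and 3.30 UMIs on average, so the gene was seen in a minority of Alpha-like cells, at up to 33 and 28 UMIs per 5000. In Beta-like cells the thinned share was 0.256% and 0.251% for GSTA1 and 2.20% and 2.03% for MGST1. Of all Alpha-like GSTA1 UMIs before thinning, 50% lay in 87 of 5051 cells and 45 of 4111 cells. In Duct-like cells 50% lay in only 2 of 153 and 3 of 178 cells, so the highest class level rested on very few cells.

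**Figure D2:**
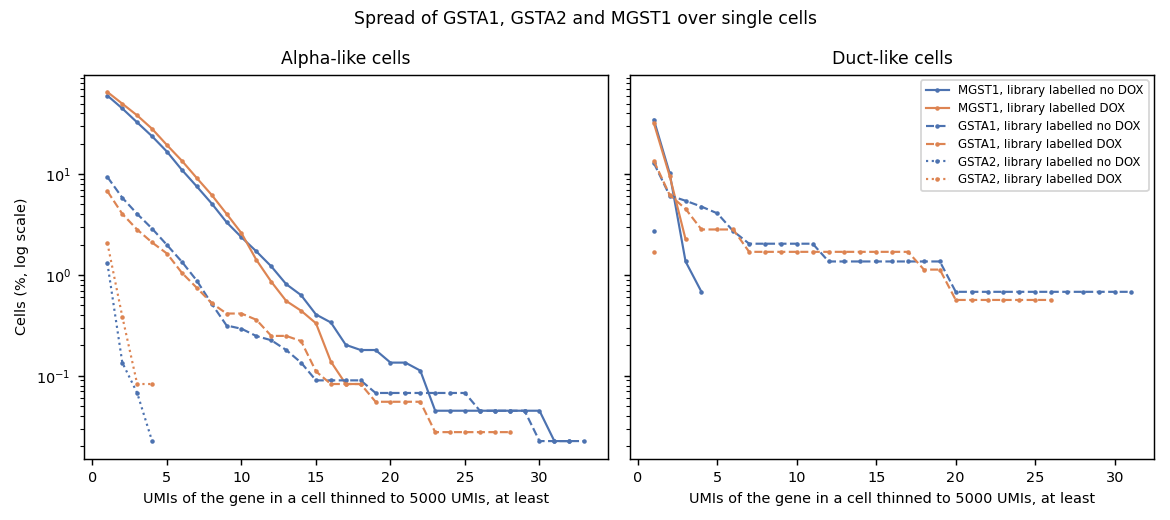
Each line gives the percentage of cells (log scale) with at least the number of UMIs on the x axis, after thinning to 5000 UMIs per cell, in Alpha-like (left) and Duct-like cells (right), for MGST1 (solid), GSTA1 (dashed) and GSTA2 (dotted), blue without DOX and orange with DOX. In Alpha-like cells MGST1 started at 60.1% and 65.2% of cells and GSTA1 at 9.37% and 6.77%, while in Duct-like cells the GSTA1 lines reached further right than those of MGST1, which ended at 4 and 3 UMIs.

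Alpha-like cells with MGST1 held GSTA1 somewhat more often than those lacking it, at 10.6% (282 of 2669 cells) against 7.56% (134 of 1772) without DOX and 7.41% (175 of 2361) against 5.56% (70 of 1259) with DOX. GSTA2 was seen in 4.09% (17 of 416) of Alpha-like cells with GSTA1 and in 1.02% (41 of 4025) of the rest without DOX. With DOX these shares were 8.16% (20 of 245) and 1.63% (55 of 3375). The paired transcripts are alike in sequence, which bears on this co-occurrence to an extent that was not tested.

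Markers of liver cells were higher in Duct-like cells with GSTA1 than in those lacking it, but their level did not follow GSTA1 over all classes. Of 6 hepatocyte markers (ALB, AFP, APOA1, APOA2, FGB and TTR), none was at 0 in any named class, and all 6 reached 5 CPM in Duct-like cells of both libraries. TTR, which islet endocrine cells also express, made up most of the summed level in every class, so the other 5 are given. Their sum was 1140 CPM and 727 CPM in Duct-like cells, 610 and 589 CPM in Alpha-like cells and between 133 and 377 CPM in the other classes. Proliferating progenitor-like cells, next after Alpha-like cells for GSTA1, had the lowest sum with 192 and 133 CPM, and Beta-like cells had 377 and 204 CPM. Within Duct-like cells without DOX, the 5 markers summed to 6933 CPM in the 19 cells with GSTA1 and 184 CPM in the 128 lacking it, and with DOX to 3516 CPM in 24 cells against 378 CPM in 153. ALB alone, the serum albumin gene, was at 145 and 97.3 CPM in Duct-like cells with GSTA1 and at 0.466 and 0 CPM in those lacking it. Within Alpha-like cells the sums were 1458 against 523 CPM and 1325 against 540 CPM, mainly from APOA1. ALB in Alpha-like cells was at 3.71 CPM with GSTA1 against 2.47 CPM without DOX, and at 3.33 against 7.18 CPM with DOX, so it did not go one way, and FGB was at 1.19 CPM on both sides without DOX and at 2.49 against 3.01 CPM with DOX. Of the other lists, the summed level of 6 acinar markers was 24.5 and 57.4 CPM in Duct-like cells and at most 9.85 CPM elsewhere, with PNLIP at 0 in every class. The 6 mesenchymal markers summed to between 2.22 and 16.2 CPM over all classes, with LUM at 0 in most. The 6 enterocyte markers summed to between 48.2 and 231 CPM, nearly all from VIL1. The part of liver-type cells in the GSTA1 levels was not tested.

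The glutathione peroxidases differed from each other in where they were high. GPX3 (ENSG00000211445, chromosome 5 from 151020591 to 151028988, plus strand), the secreted form found in plasma, was led by progenitor-like cells with 211 CPM (207 to 214) without DOX and 178 CPM (175 to 182) with it. That was 2.96-fold (2.89 to 3.04) and 2.76-fold (2.68 to 2.83) the Beta-like level of 71.2 and 64.7 CPM. Alpha-like cells had 102 and 117 CPM, Delta-like cells 52.0 and 45.1 CPM, and Duct-like cells were lowest with 18.6 CPM (13.6 to 24.7) and 21.0 CPM (16.2 to 26.8). GPX3 was thus lowest in the class where GSTA1 was highest. In Duct-like cells 2.72% of cells (4 of 147) and 8.47% (15 of 177) held it after thinning, against 55.5% and 50.3% of progenitor-like cells. With doublets kept, the Duct-like over Beta-like log2 ratio of GPX3 shrank from -1.94 to -0.14 and from -1.63 to -0.31, which ended the call.

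GPX2 (ENSG00000176153, chromosome 14 from 64939152 to 64942746, minus strand), the peroxidase of gut epithelium, was highest in Duct-like and Alpha-like cells. Duct-like cells had 41.1 CPM (33.5 to 49.7) and 30.8 CPM (24.9 to 37.7), and Alpha-like cells had 27.6 CPM (26.3 to 28.9) and 31.9 CPM (30.4 to 33.5). Duct-like cells were 1.49-fold higher (1.21 to 1.81) without DOX, while with DOX the ratio was 0.966 (0.776 to 1.19), an interval that holds 1. Progenitor-like cells held 21.2 and 19.0 CPM, Beta-like cells 11.1 and 10.0 CPM, and Delta-like cells 4.01 CPM (3.38 to 4.72) and 3.72 CPM (2.99 to 4.57). Among members that reached 5 CPM in these classes, only GPX2 was called between Delta-like and Beta-like cells. Its log2 ratio was -1.46 (-1.72 to -1.22) and -1.43 (-1.75 to -1.12), and the latter became -0.99 after thinning, which ended the call. GSTA1, below that minimum, had a log2 ratio of 1.29 and 1.69 over a Beta-like level close to background.

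GPX1 (ENSG00000233276, chromosome 3 from 49357174 to 49358605, minus strand) and GPX4 (ENSG00000167468, chromosome 19 from 1103982 to 1106791, plus strand), the widely expressed cytosolic and the phospholipid peroxidase, were found in all classes. GPX1 ranged from 108 CPM in Delta-like cells of both libraries to 250.3 CPM (231 to 271) and 205 CPM (189 to 222) in Duct-like cells. Its level in Beta-like cells, 179 and 169.7 CPM, was below that in Alpha-like cells by a log2 ratio of 0.08 and 0.20 and below that in progenitor-like cells by 0.18 and 0.19. These small differences turned under alternatives, to -0.02 for Alpha-like cells without DOX with means of log-normalised values, and to -0.01 and -0.02 for progenitor-like cells with hormone and mitochondrial UMIs out of the total. The Duct-like over Beta-like log2 ratio of GPX1 with DOX, 0.27, turned to -0.06 in the latter setting. GPX4 was highest in Proliferating progenitor-like cells without DOX, with 740.2 CPM against 709 CPM in progenitor-like cells, while with DOX these classes had 728 and 743 CPM with overlapping intervals. It was lowest in Delta-like cells with 458 and 465 CPM. GPX4 was seen in 92.3% and 92.2% of Beta-like cells after thinning, and in at least 87.9% of the cells of every named class. Delta-like cells were below Beta-like cells for GPX1 under every alternative run, but the log2 ratio of -0.73 and -0.65 shrank to as little as -0.39 and -0.36. For GPX4 the log2 ratio of -0.31 and -0.26 turned to 0.03 in both libraries with hormone and mitochondrial UMIs out of the total.

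SOD1 (ENSG00000142168, chromosome 21 from 31659666 to 31668931, plus strand) was highest in Duct-like cells, with 393 CPM (369 to 418) and 397 CPM (375 to 420), and lowest in Delta-like cells, with 159.9 CPM (156 to 164) and 159 CPM (154 to 164). Beta-like cells lay next to the bottom with 229 and 226 CPM, below Alpha-like cells with 288 and 299 CPM. The Delta-like over Beta-like log2 ratio of SOD1, -0.52 and -0.51, shrank to as little as -0.18 and -0.22 under the alternatives run. SOD2 (listed as ENSG00000112096 and matched by symbol, since GENCODE 44 gives the gene another identifier, chromosome 6 from 159669069 to 159762529, minus strand) had another order. It was led by progenitor-like cells with 67.2 CPM (65.2 to 69.2) and 65.4 CPM (63.3 to 67.5), and Beta-like cells held 33.2 and 29.1 CPM, at or within counting error of the lowest class. The progenitor-like over Beta-like log2 ratio was 1.02 (0.96 to 1.08) and 1.17 (1.11 to 1.23), which lay just past the limit of 1 used here, while GPX2 in the same comparison lay just inside it with 0.94 and 0.93. The median log2 ratio of all genes tested in that comparison was itself 0.58 and 0.59. The SOD2 call was lost with hormone and mitochondrial UMIs out of the total (0.83 and 0.96), with means of log-normalised values (0.80 and 0.98) and after thinning (0.99 without DOX).

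CAT (ENSG00000121691, chromosome 11 from 34438934 to 34472060, plus strand, 13 exons) was almost undetected. Over all cells kept, 4 UMIs were counted without DOX and 2 with DOX, out of 619168019 UMIs in all. These came from Alpha-like (2), Beta-like (1 in each library), Delta-like (1) and Proliferating progenitor-like cells (1). Progenitor-like cells had no UMI in either library, which allows at most 0.0449 and 0.0516 CPM, and Duct-like cells had none, which allows 1.18 and 0.983 CPM. No class stood out from another at this depth. A gene this close to 0 in every class gives no comparison, and whether the counting assigned reads to CAT as it did to other genes was not tested.

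Counted together, 4 of 9 members with at least 5 CPM in 1 of the groups compared were higher in Alpha-like than in Beta-like cells by a log2 ratio of at least 1 in both libraries (GSTA1, GSTA2, MGST1 and GPX2), and none was lower. Among all 10475 genes tested in that comparison, 5.73% were higher and 4.9% lower. GSTA1 and GSTA2 reached the minimum only through the class in which they were high, so they could only be called higher, and the same holds for GSTA1 in the counts that follow. In Duct-like cells 3 of 8 members were higher (GSTA1, MGST1 and GPX2) and 1 was lower (GPX3), beside 21.2% and 11.4% of all genes. In Proliferating progenitor-like cells 2 of 8 were higher (GSTA1 and MGST1) and none lower, beside 17.2% and 3.01%. In progenitor-like cells 2 of 7 were higher (GPX3 and SOD2) and none lower, beside 24.2% and 3.61%, a share of higher members near that of all genes. The median log2 ratio of all genes tested over Beta-like cells was 0.58 and 0.59 there. This median was 0.32 and 0.33 in Proliferating progenitor-like cells and 0.30 and 0.29 in Duct-like cells. In Delta-like cells none of 7 was higher and 1 was lower (GPX2), beside 4.66% and 5.39%, and GPX2 reached the minimum there only through Beta-like cells.

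Between the labelled libraries, GSTA1 was the 1 member of 8 tested that passed a log2 ratio of 0.5 in size over all cells, and it was lower with DOX. Its level was 16.9 CPM (16.4 to 17.3) without DOX and 9.44 CPM (9.10 to 9.79) with DOX, a log2 ratio of -0.84 (-0.90 to -0.77). This ratio became -0.60 when every named class was weighted equally. Alpha-like cells, which held most GSTA1 UMIs, made up 23.2% of the cells kept without DOX and 17.8% with DOX. None of the 8 members was higher. Among 10444 genes tested over all cells, 0.622% were lower and 0.402% higher by that size. The median log2 ratio was -0.10 over the 8 members and -0.01 over all genes tested. Since each condition is 1 library, DOX and anything else that differed between these preparations cannot be told apart. The summed level of the 5 hepatocyte markers was lower in the DOX library too, in all 6 classes, from 377 to 204 CPM in Beta-like, 1140 to 727 CPM in Duct-like and 610 to 589 CPM in Alpha-like cells. Single markers did not all go this way. TTR, left out of that sum, was at 37629 and 42942 CPM in Alpha-like cells and at 18708 and 21008 CPM in Proliferating progenitor-like cells. In the other classes TTR was lower with DOX. With cells split by GSTA1 after thinning, ALB in Alpha-like cells lacking it was at 2.47 CPM without DOX and 7.18 CPM with DOX. There only AFP was lower, from 28.3 to 15.9 CPM, while in Duct-like cells with GSTA1 AFP was at 418 and 1332 CPM. The part of these markers in the GSTA1 difference was not tested.

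Within classes, the GSTA1 log2 ratio was -0.52 (-0.59 to -0.44) in Alpha-like cells and -0.57 (-0.79 to -0.36) in Duct-like cells, and its interval in Delta-like cells was -1.72 to -0.72. After thinning the ratio was -0.39 (-0.52 to -0.27) in Alpha-like cells, from 1303 and 808 UMIs, which ended the call, and -0.18 (-0.60 to 0.24) in Duct-like cells, from 96 and 102 UMIs. The Duct-like ratio was also -0.18 with the members and list genes kept in the clustering, and -1.99 with a minimum of 2000 UMIs, so its size is not settled by these data. These are the classes in which GSTA1 stood above the GCG gauge. In Beta-like and progenitor-like cells the computed ratios of -1.60 and -1.13 are ratios of background levels, and no difference is read from them. The share of Alpha-like cells with GSTA1 was lower as well, 6.77% against 9.37% after thinning, while the mean number of UMIs in a cell with GSTA1 was 3.30 against 3.13. The other classes rested on fewer cells. In Beta-like cells 1 cell of the no DOX library held 104 of the 230 GSTA1 UMIs, and leaving out the top cell of each library gave a log2 ratio of -0.83. In Proliferating progenitor-like cells, where GSTA1 was below the GCG gauge, 1 cell of the DOX library held 22 of 63 UMIs, and the log2 ratio was -1.38 in place of -0.98 with the top cells left out. In Duct-like cells 1 cell held 138 of 409 UMIs in one library and 1 held 85 of 331 in the other, the log2 ratio was -0.43 in place of -0.57 without them, and the thinned shares of cells were 12.9% (19 of 147) and 13.6% (24 of 177). The Duct-like difference in level was therefore not seen in the number of cells with the gene.

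GSTA2 and MGST1 had ratios of the other sign in Alpha-like cells. GSTA2 was at 5.30 CPM with DOX against 4.05 CPM, a log2 ratio of 0.39 (0.14 to 0.63), and MGST1 had 0.19 (0.16 to 0.21). GPX2 and GPX3 had 0.21 (0.11 to 0.31) and 0.19 (0.14 to 0.24) there. Of 9 members with at least 5 CPM in Alpha-like cells, 1 passed the limit as lower (GSTA1) and none as higher, beside 0.763% and 0.572% of the 9962 genes tested in these cells. These counts changed with thinning, which also leaves out shallower cells. GSTA1 was then inside the limit. GSTA2 was past it as higher, with a log2 ratio of 0.78 (0.31 to 1.25) from 68 and 95 UMIs. GSTA2 reached the minimum of 5 CPM only through the DOX library, so it could only be called higher. Over all cells MGST1 had a log2 ratio of -0.12 (-0.15 to -0.10), and it became 0.19 when every named class was weighted equally. Alpha-like cells, which hold most MGST1 UMIs, made up 23.2% and 17.8% of the cells kept. Among progenitor-like cells MGST1 had 7.04 and 5.74 CPM, 1.70% and 1.22% of the Alpha-like level beside 1.86% and 1.32% for GCG, so no difference is read from values at this background.

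The remaining peroxidases and dismutases differed little between the libraries. GPX1 had 176 and 172 CPM, GPX4 578 and 583 CPM and SOD1 249 and 252 CPM, with log2 ratios of -0.03, 0.01 and 0.02. GPX3 had a log2 ratio of -0.15 (-0.18 to -0.13), SOD2 -0.14 (-0.17 to -0.10) and GPX2 -0.08 (-0.14 to -0.02). All 6 lay far inside the limit of 0.5, and GPX4 turned to -0.01 when classes were weighted equally. GPX3 was -0.24 in progenitor-like and 0.19 in Alpha-like cells, and its ratio over all cells became -0.02 when classes were weighted equally.

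**Figure D3:**
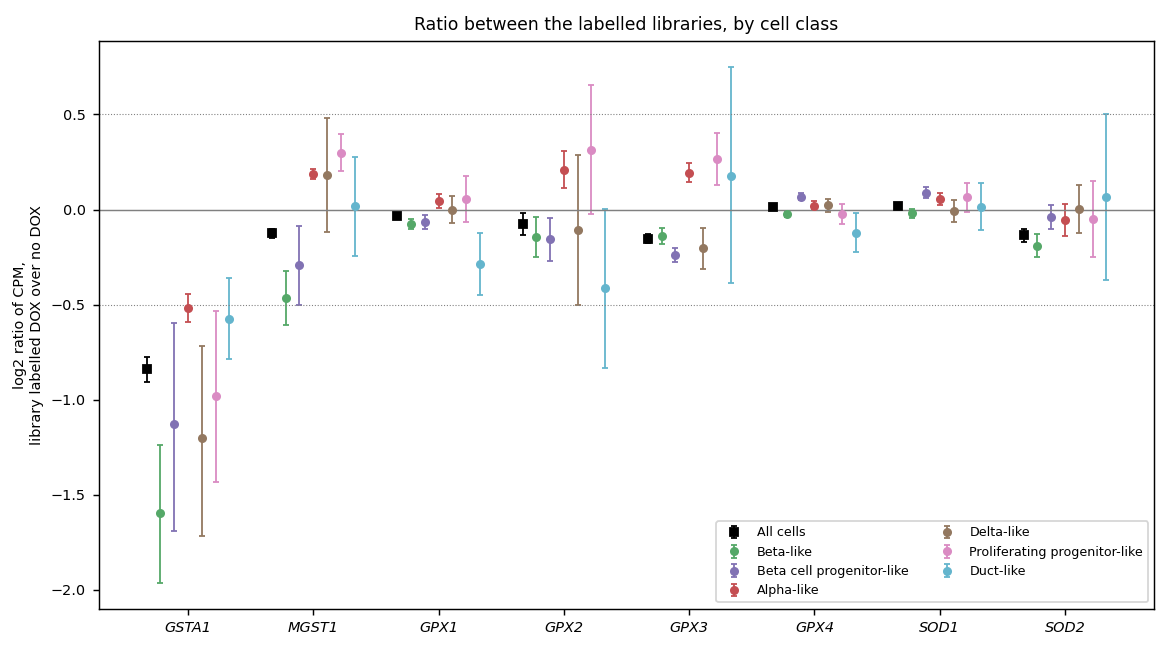
Points give the log2 ratio of CPM, DOX library over no DOX library, for 8 enzyme genes over all cells (black squares) and in each named class (coloured circles), with 95% counting intervals, and dotted lines mark 0.5 in size. The GSTA1 points lie below the lower line, at -0.84 over all cells and -0.52 in Alpha-like cells, with those of Beta-like and progenitor-like cells being ratios of background levels, as they are for MGST1 at -0.47 in Beta-like cells, while every point of the other genes lies between the lines, up to 0.31 for GPX2 in Proliferating progenitor-like cells.

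The wider pathways were described from 6 lists of genes. In the Duct-like cells, 3 of 10 other glutathione transferases tested were higher than in Beta-like cells and 1 lower, beside 21.2% and 11.4% of all genes there. GSTP1, the pi-class transferase typical of ductal epithelium, had 2427 and 2883 CPM there against 279.5 and 278 CPM in Beta-like cells. GSTM4 had 54.1 and 40.6 CPM against 5.07 and 5.48, GSTO1 had 398 and 336 against 64.9 and 63.3, and GSTA4 was the lower one with 42.2 and 41.3 against 99.1 and 97.8. Of the other peroxidases and dismutases, GPX8 had 40.3 and 34.7 CPM against 0.0380 and 0.109, and SOD3, the extracellular dismutase, had 9.47 and 4.59 against 0.0456 and 0.0321. Both reached the minimum only through Duct-like cells, so they could only be higher there, and no count is read from them. Of the thioredoxin and peroxiredoxin list, 2 of 15 were higher in Duct-like cells and 1 was lower (GLRX), beside 21.2% and 11.4% of all genes. The higher ones were PRDX1 with 568 and 588 CPM against 138 and 132, and PRDX6 with 381 and 382 against 144 and 127. CCS, the copper chaperone of SOD1, was highest in progenitor-like cells with 165 and 142 CPM. GPX7, a peroxidase of the endoplasmic reticulum, was highest in Alpha-like cells with 96.0 and 100.5 CPM, and it was called lower in progenitor-like than in Beta-like cells.

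Genes of glutathione synthesis and recycling had their highest levels in different classes. SLC7A11, the cystine importer that feeds glutathione synthesis, was highest in Delta-like cells with 11.5 and 12.3 CPM against 1.51 and 1.59 in Beta-like cells, and CHAC1, which degrades glutathione, was highest there too with 14.1 and 14.8 against 4.45 and 5.11. These were the 2 of 12 genes of this list that were higher in Delta-like cells, beside 4.66% of all genes. SLC7A11 reached the minimum only through the class in which it was high, here and below. In Proliferating progenitor-like cells 3 of 12 were higher, beside 17.2% of all genes, CHAC2 with 22.5 and 21.7 CPM against 5.43 and 5.37, GGCT with 171 and 180.0 against 50.6 and 47.7, and SLC7A11 with 5.25 and 6.99. Progenitor-like cells had 3 of 12 higher (GCLC, GSR and SLC7A11), beside 24.2% of all genes. None of 11 was higher in Alpha-like cells, beside 5.73% of all genes, and none of 11 in Duct-like cells, beside 21.2%. In Duct-like cells 2 of 11 were lower (GCLM and SLC3A2), beside 11.4% of all genes. TXNIP, which binds thioredoxin and rises with glucose, had 124 and 131 CPM in Alpha-like and 121 and 131 in Delta-like cells against 29.4 and 34.4 in Beta-like cells. PRDX4, the peroxiredoxin of the endoplasmic reticulum, had its lowest level in progenitor-like cells with 86.5 and 81.7 CPM, against 352 and 377 in Alpha-like cells.

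Genes of the NRF2 pathway, the transcription factor route that switches on many of these enzymes, had 6 of 14 tested called higher in progenitor-like cells (KEAP1, NQO1, GCLC, SLC7A11, ME1 and ABCC3), beside the 24.2% of all genes there. Since NQO1, ME1 and SLC7A11 reached the minimum only through progenitor-like cells and could only be called higher, nothing about the list is read from this count. ME1 had 16.1 and 15.2 CPM against 2.27 and 2.72 in Beta-like cells, beside 15.9 and 11.5 in Proliferating progenitor-like cells, and NQO1 had 13.8 and 14.3 against 4.67 and 4.51. NQO1 was highest in Alpha-like cells with 17.4 and 16.4 CPM. ABCC3 was highest in progenitor-like cells with 16.8 and 9.61 CPM and lowest in Delta-like cells with 0.728 and 0.207. The selenium-containing GPX enzymes need genes for selenoprotein synthesis. Of these genes, 1 of 4 tested was higher in progenitor-like cells, beside 24.2% of all genes. It was EEFSEC, the elongation factor for selenocysteine, with log2 ratios of 1.02 (0.90 to 1.14) and 1.07 (0.95 to 1.18). The median of all genes tested there was 0.58 and 0.59. None of the 2 to 5 tested passed the limit in another class, where 4.66% to 21.2% of all genes were higher and 3.01% to 11.4% lower. Their levels differed between the highest and lowest class by 3.40-fold for PSTK, 2.12-fold for SEPHS2, 2.06-fold for EEFSEC and 1.84-fold for SECISBP2.

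**Figure D4:**
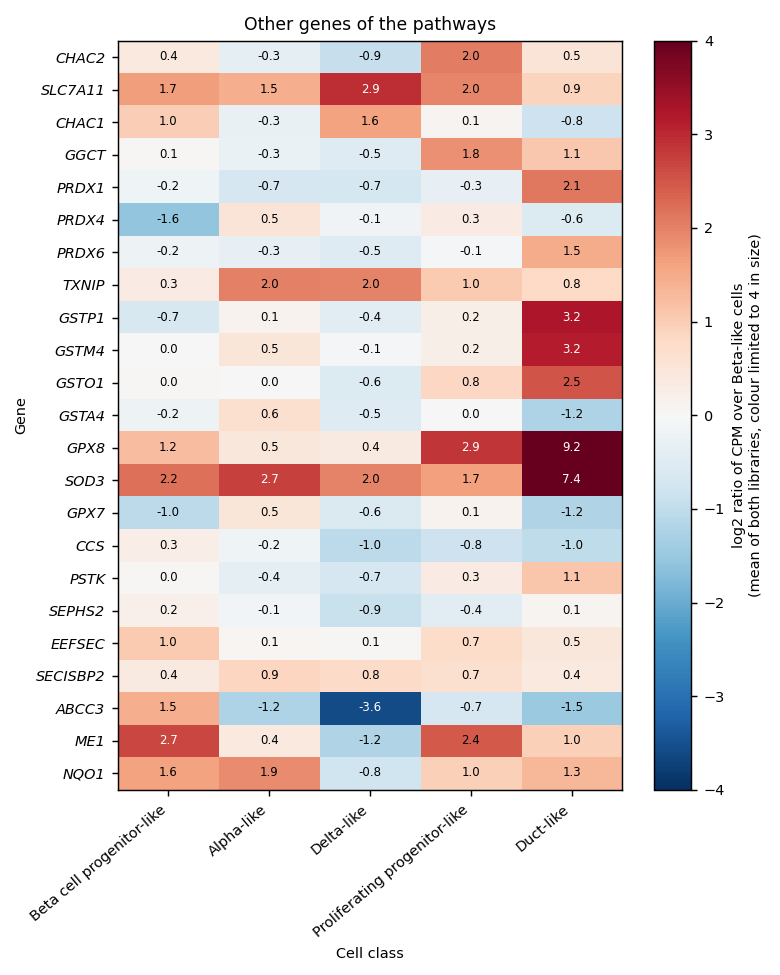
Each cell of the heat map gives the log2 ratio of CPM of a class over Beta-like cells, as the mean of both libraries, for up to 4 genes per pathway list with the largest spread between classes. The Duct-like column holds the largest values, GPX8 and SOD3, with GSTP1 and GSTM4 next in that column, SLC7A11 is highest in Delta-like cells, and ME1 is high in both progenitor-like classes.

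Between the labelled libraries the lists held 1 call over all cells. Among all 10444 genes tested, 0.622% were lower and 0.402% higher by at least 0.5 in size. Nothing about the lists is read from these counts. Of the genes tested, none of 11 in glutathione synthesis and recycling, 15 thioredoxin, peroxiredoxin and glutaredoxin genes, 11 other transferases, 2 other peroxidases and 2 selenoprotein genes passed 0.5 in size over all cells. Their medians lay between -0.09 and 0.06. In the NRF2 list, 1 of 13 was lower, ABCC3, an organic anion transporter, with 4.20 CPM with DOX against 6.72 CPM, a log2 ratio of -0.68 (-0.78 to -0.58). It was -0.67 (-0.83 to -0.51) within Beta-like and -0.81 (-0.96 to -0.66) within progenitor-like cells. In Duct-like cells it rested on 3 and 7 UMIs. Over all cells ABCC3 reached the minimum of 5 CPM only through the no DOX library, so it could only be called lower. HMOX1 and NFE2L2 were picked after their values were seen. HMOX1, the heme oxygenase that NRF2 induces, was under the minimum of 5 CPM, with 0.570 and 0.889 CPM. NFE2L2, the gene of NRF2 itself, had 71.0 and 80.3 CPM, a log2 ratio of 0.18 (0.15 to 0.20).

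Finer clusters depended on the numerical settings of the clustering, which were fixed after an earlier run of the same steps had divided the Beta-like cells in another way, so their values are given as a description of 1 division. In it, clusters of 3884 and 2647 cells were Beta-1-like, with 7 and 6 of 12 markers at a log2 fold of at least 1, and 1 of 5173 cells was Beta-2-like with all 12. A cluster of 5996 cells led by GHRH and IAPP stayed unnamed, with 3 of 12 markers of its nearest name. The pair of Beta-1-like clusters did not go one way for GPX3. It had 109 and 106 CPM in the cluster of 3884 cells, which metallothionein genes led, 39.7 and 45.0 CPM in that of 2647 cells, and 70.4 and 58.0 CPM in Beta-2-like cells between them. GPX2 had 13.5 and 13.1 CPM in the larger Beta-1-like cluster, with intervals that overlapped those of the Beta-2-like level of 14.8 and 14.6 CPM, and 7.62 and 6.99 CPM in the smaller one. SOD2 was lower in both Beta-1-like clusters than in Beta-2-like cells, which had 44.1 and 36.1 CPM. The larger Beta-1-like cluster had 32.3 and 30.3 CPM of SOD2 and the smaller one 29.5 and 28.5 CPM. The unnamed cluster of 5996 cells was lower still, with 27.5 and 24.9 CPM of SOD2, and it had 6.34 and 6.17 CPM of GPX2. Low SOD2 was thus not particular to the Beta-1-like clusters. Of the finer Alpha-like clusters, that of 8068 cells held MGST1 at 417 and 473 CPM, and that of 1119 cells, with a median of 2836 UMIs against 13591, held it at 363 and 412 CPM. Their GSTA1 intervals overlapped in both libraries, 62.0 to 65.9 CPM beside 55.9 to 78.0 CPM without DOX and 42.2 to 45.9 CPM beside 26.7 to 46.7 CPM with DOX.

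Across the 12 profiles of 6 classes in 2 libraries, the members did not all follow the same pattern. Pearson correlations of log2(CPM + 1) are given as a description over profiles that share libraries, and each class enters once per library. The 12 profiles are thus not 12 separate points. GSTA1 correlated with GSTA2 (0.92) and MGST1 (0.80), GPX2 with SOD1 (0.94) and GPX1 (0.84), and SOD2 with GPX4 (0.80) and GPX3 (0.77). GPX3 did not correlate with GPX2 (0.02). These sets were not separate, since GPX2 also correlated with GSTA2 (0.74). The genes most like a member were picked for the largest r among genes with at least 5 CPM in 1 profile. High r values among them thus follow in part from that choice. The genes most like GSTA1 were CMTM7 (0.97), RP11-297L17.2 (0.97) and WWC2 (0.96), and those most like MGST1 included CXCL1 (0.96) and DOCK4 (0.96). CXCL1 encodes a chemokine and was among the markers that named the Alpha-like cluster. Those most like GSTA2 were FAH (0.97), PCSK5 (0.96) and TSPAN14 (0.96), and those most like GPX2 were CYBA (0.97), UBL5 (0.96) and B2M (0.96). GPX3 was most like VAMP2 (0.99), FAM171B (0.98) and CHGA (0.98), of which VAMP2 and CHGA belong to secretory vesicles and granules.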

How the data were processed

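Live cells of eBCs from 1 clone were profiled with 10X Genomics 3' single-cell RNA sequencing, 1 library per condition. The authors deposited raw UMI counts per gene and barcode, whose matrix header names Cell Ranger 3.0.2, and the submitters' processing notes name Cell Ranger 3.0, kallisto, bustools 0.40.0, Scanpy, Seurat and GRCh38. The study's methods describe kallisto and bustools on Ensembl GRCh38 transcripts, dropping reads shared between genes, for its own counts. The header of the deposited counts names Cell Ranger, and its annotation is not given in the sources used here, so reads of near-identical genes such as GSTA1 and GSTA2 may have been split or dropped.

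A minimum of 1000 UMIs left 29703 and 31456 barcodes, of which Scrublet as implemented in scanpy 1.11.5 removed 26.6% and 26.5% as doublets. Each cell was scaled to 10000 counts and its values were log-transformed. Highly variable genes were taken without the members and list genes, and total UMIs and mitochondrial share were regressed out. Cells were clustered on 50 principal components with 3 neighbours per library and Leiden (leidenalg 0.10.2) at a resolution of 0.2, or 0.5 for finer clusters. Thread and floating-point settings were fixed, since the edges of classes moved with them in an earlier run. Classes were named from 12 markers each.

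Levels are summed UMIs per 1000000 UMIs of a class with exact Poisson intervals, and ratios carry exact conditional binomial intervals (scipy 1.17.1), both at 95%. A count of 0 allows up to 3 UMIs. Genes with at least 5 CPM in 1 of the groups were compared, and called at a log2 ratio of 1 in size in both libraries between classes, or 0.5 between libraries. Shares of cells were taken after thinning to 5000 UMIs. With no replicate, no test was run. The ratio and interval code was tested on simulated data. The members and lists were chosen with earlier results of these data known. Named were all members, list genes past 0.5 between the libraries, up to 4 per list with the largest fold between classes, and the 3 genes most like each member with at least 4-fold between classes, of which 1 is not reported here. Alternatives covered the clustering, filters, doublets, thinning, totals and minimum level.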

Additional observations from a re-analysis of the deposited data

How the results depend on the processing

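No paired analysis was possible because each condition has 1 library. No direction called above was reversed under the alternatives run, while small differences from Beta-like cells that were not called turned for GPX1, GPX4, SOD2 and MGST1 in some classes. With doublets kept, members lower than in Beta-like cells numbered 1 in progenitor-like (MGST1), 2 in Delta-like (GPX2 and MGST1) and 0 in Duct-like cells, and the proliferating cells formed no named class. After thinning to 5000 UMIs, 0 members were lower in Delta-like cells and 1 was higher in progenitor-like cells. With means of log-normalised values, and with hormone and mitochondrial UMIs left out of the total, 1 member in place of 2 was higher in progenitor-like cells, GPX3. The cause of these changes was not tested. With a minimum of 20 CPM, 0 NRF2 genes were lower, since ABCC3 was no longer among those compared. With no minimum, 1 other transferase was lower (GSTM5, from 2 and 1 UMIs) and 1 NRF2 gene was higher (HMOX1), and CAT, from 4 and 2 UMIs, passed the limit as lower too. With log2(CPM + 5), 10 of the 15 genes most like a member were named again. The GSTA1 log2 ratio between the labelled libraries lay between -0.88 and -0.60 over 12 alternatives. Leaving out the cell with most UMIs of a member, and thinning or leaving out hormone and mitochondrial UMIs within a class, were chosen after seeing the data. Depth limits GSTA2 and CAT most, with 624 and 6 UMIs in all, and the Duct-like class, with 331 cells. Removal of more than 26% of barcodes as doublets by a caller, and classes rebuilt here rather than taken from the study, are further limits.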
